A study of Mus musculus with 6 samples.

Results

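St3gal1, St3gal2, St3gal3, St3gal4 and St3gal6 encode the mouse sialyltransferases that attach sialic acid in α2,3 linkage to the galactose ends of glycoprotein glycans. They were chosen by gene name, through the RefSeq accession that each probe set carries in its own name, and the 5 genes were found on 5 of the 1246 probe sets, among 909 named genes. Each of the 5 had 1 probe set. That of St3gal4 carries the suffix s, which marks probe sets that can bind several transcripts, and the other 4 carry no such suffix. The related St3gal5 is not a member, since its product acts on glycolipids.

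The cells were MLE-15, a mouse lung epithelial line made from lung tumours of mice that carried the SV40 large T antigen under a surfactant protein promoter. It is 1 immortalised line and not primary epithelium. Control cells, untreated per the series design, were measured on 3 arrays. The other 3 arrays came from cells given PMA (phorbol 12-myristate 13-acetate, an activator of protein kinase C) at 10 nM for 24 h, a dose and time that the design text gives and the sample labels do not. The study asked whether such enzymes are expressed in these cells and whether PMA induces them. Each group has replicate numbers 1, 2 and 3. In the sample titles the names of numbers 2 and 3 end in A and B. Those of number 1 carry no such letter and spell the cell line with a hyphen. The labels do not say what a number stands for or whether the replicates were separate cultures, so p-values measure only how far these samples spread, and that spread may be technical.

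Sialic acid ends most glycans of the airway surface, and the linkage decides which lectins, including selectins, Siglecs and viral hemagglutinins, can bind there. The members differ in the chain they act on. St3gal1 and St3gal2 sialylate galactose linked to N-acetylgalactosamine, the core 1 structure of mucin-type O-glycans, and St3gal2 also acts on gangliosides. St3gal3, St3gal4 and St3gal6 sialylate galactose linked to N-acetylglucosamine, as found on N-glycans and on poly-N-acetyllactosamine chains. St3gal4 and St3gal6 are known for their part in making sialyl Lewis x, the selectin ligand.

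Levels are given as log2 values made with RMA, a method that corrects the background, brings all arrays to a common distribution and gives each probe set 1 value. A difference of 1 is a doubling of the measured signal. Array medians ran from 5.64 to 5.71 and upper quartiles from 7.86 to 8.05. All 5 members had a mean over the 6 arrays above the medians of the arrays, and 70.3% to 85.5% of probe sets had a lower mean than a member. No probe set measured background, so no gene is called present, and a higher value of 1 member than of another does not mean more transcript. Among 13 listed markers of lung epithelium only Sftpa1 and Sftpd, which encode surfactant proteins, were measured. Sftpa1 lay between 3.29 and 3.89, under all 6 lower quartiles (4.32 to 4.43), and Sftpd between 5.28 and 5.50, under all 6 medians. The labelled cell type could therefore be checked on 2 dim probe sets only.

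RefSeq (GRCm38.p6) start-site windows were at hand for 3 of the 5 members, 1 each for St3gal3 and St3gal4 and 2 for St3gal6. The 250 bases before each start were searched, because the study asks about a phorbol ester and because St3gal3 parted from St3gal4 and St3gal6 across the arrays. St3gal3 is shown as the only member with a window that was higher in the number 1 arrays, and St3gal6 because its 2 starts have unlike surroundings. The windows are chr4:118134947-118135196 for St3gal3, chr16:58524254-58524503 for the upstream start of St3gal6 and chr16:58523427-58523676 for its downstream start, all on the minus strand and printed 5′ to 3′ along the gene. Capitals mark matches to GGGCGG, the GC box bound by Sp1 family factors, on either strand.
St3gal3: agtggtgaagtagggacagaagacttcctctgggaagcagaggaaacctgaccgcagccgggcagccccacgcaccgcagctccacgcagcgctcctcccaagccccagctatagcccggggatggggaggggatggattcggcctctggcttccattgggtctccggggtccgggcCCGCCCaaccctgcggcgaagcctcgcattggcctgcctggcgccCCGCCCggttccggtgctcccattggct
St3gal6 upstream start: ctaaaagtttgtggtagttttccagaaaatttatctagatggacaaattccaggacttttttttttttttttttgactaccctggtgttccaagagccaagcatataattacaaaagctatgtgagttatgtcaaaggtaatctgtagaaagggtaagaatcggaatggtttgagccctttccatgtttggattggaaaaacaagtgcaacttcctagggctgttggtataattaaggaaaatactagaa
St3gal6 downstream start: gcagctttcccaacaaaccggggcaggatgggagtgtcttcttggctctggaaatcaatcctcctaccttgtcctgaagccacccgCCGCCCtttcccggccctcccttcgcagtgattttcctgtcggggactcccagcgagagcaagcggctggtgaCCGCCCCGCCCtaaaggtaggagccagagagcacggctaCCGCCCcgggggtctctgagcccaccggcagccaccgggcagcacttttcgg
The St3gal3 window held 2 GC boxes, which begin 73 and 28 bases before the start. The downstream St3gal6 window held 4, of which the pair beginning 91 and 86 bases before the start share a base, and the upstream window held 0. St3gal4 had 3, beginning 33, 26 and 19 bases before its start. Of all 32851 windows of this length, 32.7% hold a GC box. The share of G and C was 68.4% in St3gal3, 72.8% in St3gal4, 64.4% at the downstream St3gal6 start and 34.8% at the upstream one, against a median of 52.4% over all windows. The pattern TGANTCA, where N is any base, takes in the phorbol ester response element and was searched on both strands. It was in 0 of the 4 member windows and in 6.75% of all windows, an upper bound for the element itself. The cAMP response element TGACGTCA was also in 0 of the 4, against 1.55% of all. These are matches of letters within short windows only, and their part in any difference between arrays was not tested.

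No PMA difference of a member was larger than the spread between arrays allowed for. By limma with Benjamini-Hochberg adjustment over all probe sets, 0 of the 5 members passed at an adjusted p of 0.05, against a background of 0% of all 1246 probe sets. At an unadjusted p under 0.05 the count was 0 of 5, against 0.321% of all probe sets. With the replicate number as a block it was again 0 of 5, adjusted (0% of all) and unadjusted (3.37% of all). All 5 had a higher mean with PMA, and 52.2% of all probe sets did. Their median difference was 0.077 log2 units, against 0.0033 over all probe sets. No member had its 3 PMA arrays all above its 3 control arrays, an order met by 1.61% of all probe sets.

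**Figure D1:**
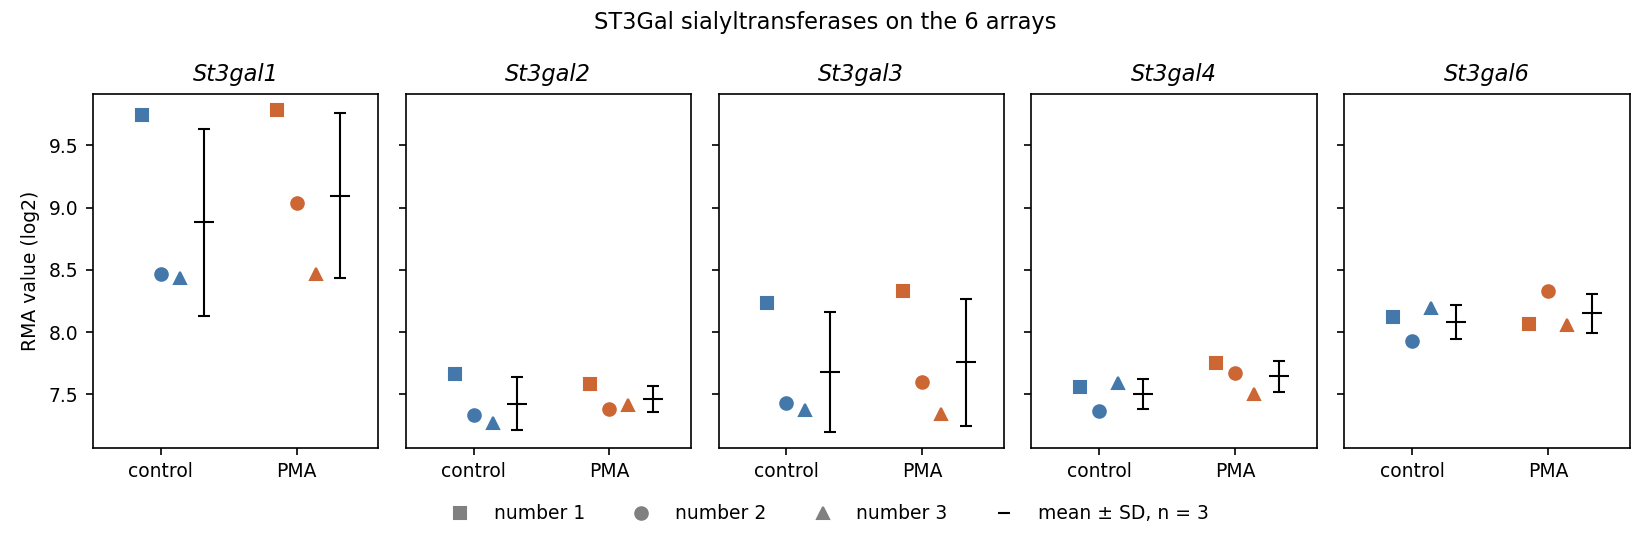
RMA values (log2) of the 5 members on each array, with control arrays in blue and PMA arrays in orange. Squares, circles and triangles are replicate numbers 1, 2 and 3, and black bars give mean ± SD (n = 3). The number 1 squares lie above the other symbols for St3gal1, St3gal2 and St3gal3 and among them for St3gal4 and St3gal6.

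St3gal1, a core 1 O-glycan enzyme, stood at 9.75, 8.47 and 8.43 in control arrays 1, 2 and 3 and at 9.79, 9.04 and 8.46 in PMA arrays 1, 2 and 3. The number 1 arrays were high in both groups, PMA 2 came next, and the other 3 lay close together, so the groups overlapped. The mean was 8.88 ± 0.75 (SD, n = 3) in control and 9.10 ± 0.66 (SD, n = 3) with PMA. The PMA difference within numbers 1, 2 and 3 was 0.040, 0.57 and 0.032 log2 units. It had 1 sign in all 3 numbers, as in 23.1% of all probe sets, and St3gal1 was the only member of which this held. The fitted difference was 0.21 log2 units (SE 0.50, adjusted p = 0.999). With the replicate number as a block the same difference had an SE of 0.11 and an adjusted p of 0.992. When both number 2 arrays were set aside it was 0.036.

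St3gal2, the other core 1 enzyme, stood at 7.67, 7.34 and 7.27 in control arrays 1, 2 and 3 and at 7.58, 7.38 and 7.42 with PMA. Its 6 values spanned 0.39 log2 units, and the number 1 arrays were again the highest in each group. Group means were 7.42 ± 0.21 (SD, n = 3) in control and 7.46 ± 0.10 (SD, n = 3) with PMA. Within numbers 1, 2 and 3 PMA minus control was -0.085, 0.048 and 0.15 log2 units. The fitted difference was 0.036 (SE 0.13, adjusted p = 0.999), and it was -0.019 when both number 3 arrays were set aside. With the replicate number as a block the difference of 0.036 had an SE of 0.071 and a limma adjusted p of 0.995.

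St3gal3, which acts on N-glycan type chains, stood at 8.23, 7.43 and 7.38 in control arrays 1, 2 and 3 and at 8.33, 7.60 and 7.35 with PMA. The number 1 arrays were high in both groups and the other 4 fell within 0.25 log2 units of each other. Group means were 7.68 ± 0.48 (SD, n = 3) in control and 7.76 ± 0.51 (SD, n = 3) with PMA. PMA minus control was 0.093, 0.17 and -0.031 log2 units within the 3 numbers and 0.077 (SE 0.35) in the fit, with an adjusted p = 0.999. With the replicate number as a block the same difference had an SE of 0.069 and a limma adjusted p of 0.992.

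St3gal4, an enzyme of selectin ligand synthesis, stood at 7.56, 7.37 and 7.59 in control arrays 1, 2 and 3 and at 7.75, 7.68 and 7.50 with PMA. Here the highest arrays were PMA 1 and PMA 2, control 2 was the lowest, and PMA 3 lay below control 1 and control 3. Group means were 7.51 ± 0.12 (SD, n = 3) in control and 7.64 ± 0.13 (SD, n = 3) with PMA. PMA minus control was 0.19, 0.31 and -0.087 log2 units within the 3 numbers and 0.14 (SE 0.10) in the fit, with an adjusted p = 0.999. Without number 3 in either group the difference was 0.25 (adjusted p = 1.00), and without number 2 it was 0.053.

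St3gal6, the remaining enzyme of N-acetylglucosamine chains, stood at 8.12, 7.93 and 8.19 in control arrays 1, 2 and 3 and at 8.07, 8.33 and 8.06 with PMA. Its lowest and highest arrays were control 2 and PMA 2, and the number 1 arrays lay between. Group means were 8.08 ± 0.14 (SD, n = 3) in control and 8.15 ± 0.16 (SD, n = 3) with PMA. PMA minus control was -0.054, 0.41 and -0.14 log2 units within the 3 numbers, so the fitted difference of 0.072 (SE 0.11, adjusted p = 0.999) rested on number 2. When both number 2 arrays were set aside it was -0.095.

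**Figure D2:**
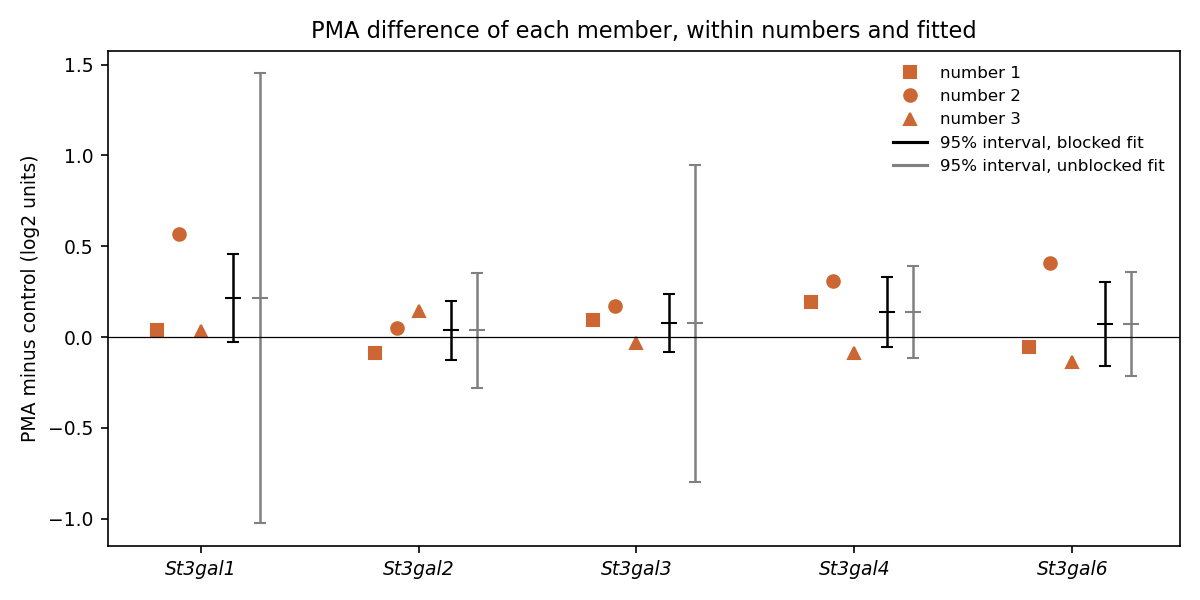
PMA minus control (log2 units) of each member. Orange symbols are the differences within replicate numbers 1 (square), 2 (circle) and 3 (triangle), and bars give the fitted difference with its 95% interval, black with the number as a block and grey without. All 5 black and all 5 grey intervals include 0, and the number 2 circles lie above 0 for all 5 members.

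The within-number differences varied by number. PMA 2 exceeded control 2 in 5 of 5 members, with a median difference of 0.31 log2 units. PMA 1 exceeded control 1 in 3 of 5 (median 0.040) and PMA 3 exceeded control 3 in 2 of 5 (median -0.031). Over all probe sets PMA was higher in 48.9%, 50.4% and 46.7% within numbers 1, 2 and 3, so number 2 did not rise as a whole. The rise was not confined to members. From control 2 to PMA 2, St8sia6 went from 8.583 to 9.089, St3gal5 from 8.39 to 8.825 and Icam1 from 8.218 to 8.797. Other genes fell, such as St6galnac1 (4.693 to 4.565), B3gnt3 (8.977 to 8.567) and Chst1 (8.846 to 8.272). Whether members rose more than genes of similar level was not tested. Of the 1246 probe sets, 9 had a larger difference in number 2 than St3gal1, 32 than St3gal6, 63 than St3gal4, 173 than St3gal3 and 456 than St3gal2. No second pair of number 2 exists, so this difference has no replicate check.

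The intervals bound what these arrays could hide. With the replicate number as a block, the 95% interval of the PMA difference lay between -0.16 and 0.46 log2 units for all 5 members, so a 2-fold rise of the measured signal was outside it in 5 of 5, as in 100% of all probe sets. For St3gal1 it ran from -0.027 to 0.46 log2 units, or up to 1.37-fold. Without the block the interval of St3gal1 ran from -1.03 to 1.45 and that of St3gal3 from -0.80 to 0.95, so a doubling was within it for St3gal1 and for no other member. Over all probe sets 88.6% of the unblocked intervals lay within 1 log2 unit of 0. These bounds cover the arrays at hand.

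The members parted along the replicate numbers. St3gal1, St3gal2 and St3gal3 were higher in the 2 number 1 arrays than in the 4 arrays of numbers 2 and 3, and St3gal4 and St3gal6 did not pass that test. By limma with PMA as a term and Benjamini-Hochberg adjustment over all probe sets, 3 of 5 members were called higher and 0 lower. In this comparison 41.7% of all probe sets were called, 27.5% higher and 14.1% lower, so a large part of the array moved with number 1. The comparison was chosen with earlier results of these data known. It sets 1 control and 1 PMA array against 4 others, so it describes these arrays, and what the number stands for cannot be told apart from it.

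St3gal1 averaged 9.77 in the number 1 arrays and 8.60 ± 0.29 (SD, n = 4) in the others, a difference of 1.17 log2 units (SE 0.13, adjusted p = 4.24e-05), or 2.24-fold. The 4 others ended 0.71 log2 units below the lower number 1 array. St3gal3 averaged 8.28 against 7.44 ± 0.11 (SD, n = 4), a difference of 0.84 (SE 0.082, adjusted p = 1.21e-05), or 1.79-fold, with a gap of 0.64 between the sets. St3gal2 averaged 7.62 against 7.35 ± 0.063 (SD, n = 4), a difference of 0.27 (SE 0.072, adjusted p = 0.0115), or 1.21-fold. The call of St3gal2 was lost without control 1, with a difference of 0.18 (limma adjusted p = 0.179), which is the difference within the PMA arrays. It was 0.36 within the control arrays.

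St3gal4 averaged 7.66 in number 1 and 7.53 ± 0.13 (SD, n = 4) in the others, a difference of 0.12 log2 units (SE 0.085, adjusted p = 0.283) with a 95% interval of -0.068 to 0.31. St3gal6 averaged 8.10 and 8.13 ± 0.17 (SD, n = 4), a difference of -0.031 (SE 0.10, adjusted p = 0.832) with an interval of -0.26 to 0.20. Their number 1 arrays overlapped the others, while those of the first 3 members did not. Over all probe sets 55.9% did not overlap in either direction, and 37.8% had number 1 above, the direction of all 3 members. With 5 members, 3 of 5 is not read as differing from these shares.

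**Figure D3:**
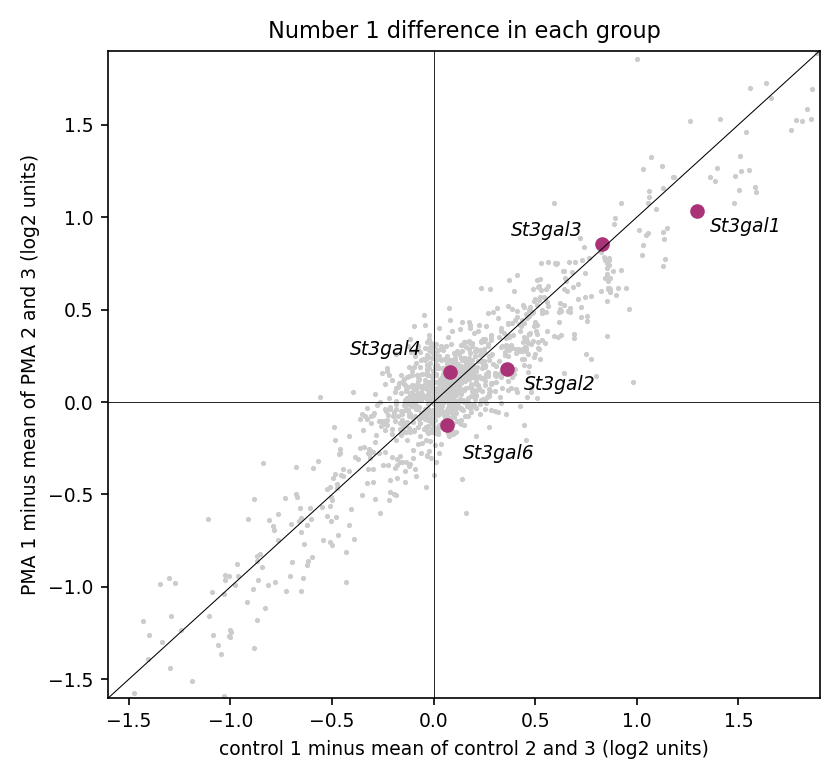
Difference of the number 1 array from the mean of arrays 2 and 3 (log2 units), in control arrays on the x axis and in PMA arrays on the y axis, for all probe sets (grey, 50 lie outside the axes) and the 5 members (purple). The line marks equal differences. St3gal1 (1.30 and 1.03) and St3gal3 (0.83 and 0.85) lie far out along the line, and St3gal4 and St3gal6 near the origin.

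The number 1 difference was also taken within each group. In control arrays it was 1.30 for St3gal1, 0.36 for St3gal2, 0.83 for St3gal3, 0.081 for St3gal4 and 0.064 for St3gal6, and in PMA arrays 1.03, 0.18, 0.85, 0.16 and -0.13 log2 units. A test of whether the PMA difference depended on number 1 called 0 of 5 members by limma, with 0.0803% of all probe sets called. No member had an unadjusted p under 0.05, against 5.62% of all probe sets, and the smallest was 0.193, for St3gal2. The interval of this test was wide, from -0.93 to 0.41 log2 units for St3gal1, so a dependence of that size was not detectable with 6 arrays.

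Numbers 2 and 3 were compared in the same way. By limma, number 2 minus number 3 was 0.30 log2 units (SE 0.13, adjusted p = 0.953) for St3gal1, which rested on PMA 2, since it was 0.034 between the control arrays and 0.57 between the PMA arrays. For the other members it lay between -0.026 and 0.15. The test called 0 of 5 members, against 0% of all probe sets, with 1 member, St3gal1, at an unadjusted p under 0.05 and 4.9% of all probe sets.

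As a share of the variation over the 6 arrays (the sum of squares about the mean), the step between number 1 and the rest took 95.7% in St3gal3, 87.7% in St3gal1 and 86.1% in St3gal2. It took 22.1% in St3gal4 and 1.34% in St3gal6, against a median of 60.0% over all probe sets. PMA took 3.32% in St3gal1, 1.74% in St3gal2, 0.892% in St3gal3, 31.6% in St3gal4 and 8.25% in St3gal6, against a median of 3.67%. In St3gal6 90.4% was left to neither. The SD over the 6 arrays was 0.13 in St3gal4 and 0.14 in St3gal6, near the median of 0.12 over all probe sets, and 0.64 in St3gal1.

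Members were also set against each other array by array. The difference of 2 members on the same array removes what the array shares, and it restates their number 1 differences as ratios. The 10 pairs were compared by an exact two-sided permutation test over the arrays. The 15 ways to choose the 2 number 1 arrays allow no p below 0.0667, so the test cannot reach 0.05. St3gal1 minus St3gal2, the core 1 enzymes, was 2.08 and 2.21 in control 1 and PMA 1 and between 1.05 and 1.65 in the other 4 arrays. That is a step of 0.90 log2 units, or 1.86-fold, in their ratio, with an exact permutation p = 0.0667 and an adjusted p = 0.111 over the 10 pairs.

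Among the enzymes of N-acetylglucosamine chains, St3gal3 minus St3gal4 was 0.67 and 0.57 in the number 1 arrays and between -0.21 and 0.063 in the others, a step of 0.72. St3gal3 minus St3gal6 was 0.11 and 0.26 against -0.82 to -0.50, a step of 0.87. Each had an exact permutation p of 0.0667 and an adjusted p of 0.111. St3gal4 minus St3gal6 was -0.56 and -0.32 against -0.66 to -0.55, so these sets overlapped, with a step of 0.15 and an exact permutation p = 0.200 (adjusted p = 0.222). Between PMA and control the same 10 differences had a smallest exact permutation p of 0.500, where 0.100 is the smallest that 3 against 3 arrays allow.

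**Figure D4:**
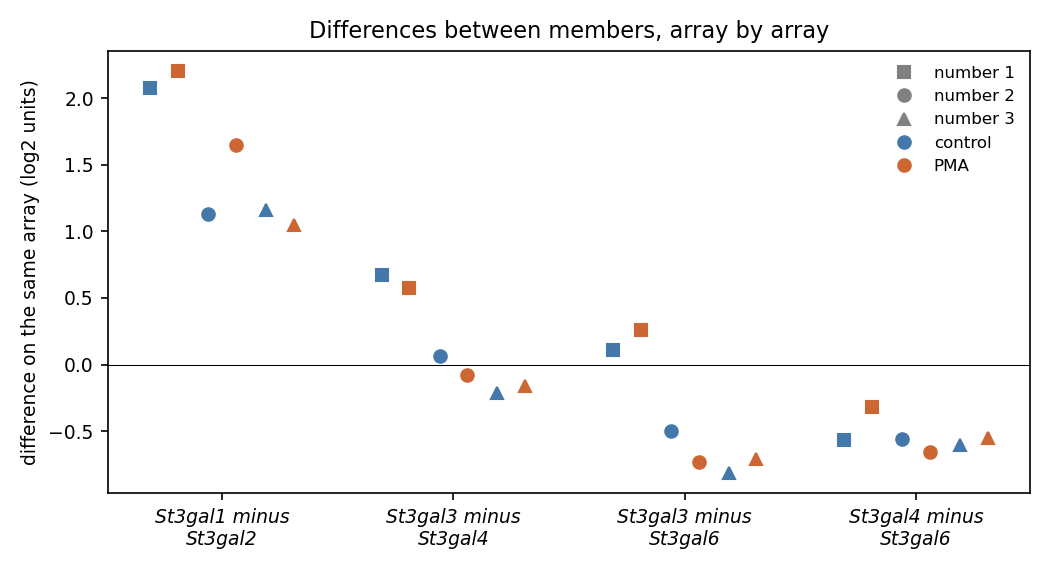
Difference of the log2 values of 2 members on the same array (y axis, log2 units) for 4 pairs, with control arrays in blue and PMA arrays in orange and replicate numbers 1, 2 and 3 as squares, circles and triangles. The squares stand above the rest for St3gal1 minus St3gal2, St3gal3 minus St3gal4 and St3gal3 minus St3gal6, and mix with them for St3gal4 minus St3gal6.

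The genes most like a member over the 6 arrays were found by Pearson correlation with the 908 other named genes, as a description, since the 6 points share the step at number 1. For St3gal1 they were Huwe1, a ubiquitin ligase (r = 0.995), the sulfatase Arsb (r = 0.991) and Mgat3, which adds the bisecting N-acetylglucosamine (r = 0.989). Huwe1 also stood higher in PMA 2 (7.24) than in control 2 (6.81). For St3gal3 they were Galnt10, which starts O-glycans (r = 0.998), the chondroitin polymerizing factor Chpf (r = 0.996) and Pkd1 (r = 0.995). For St3gal2 they were Galntl5, Hs2st1 and Galnt15, with r of 0.981, 0.979 and 0.978. An r over 0.95 was met by 10.1% of genes for St3gal1, 15.2% for St3gal3 and 2.64% for St3gal2, so many genes share that step.

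St3gal4 and St3gal6 had few such neighbours. Only Wnt3a, a Wnt ligand, correlated with St3gal4 above 0.95 (r = 0.974), followed by Klra6 (r = 0.940) and Gpc4 (r = 0.937). These were nearly flat: Wnt3a ran from 5.52 to 5.72, Klra6 from 3.22 to 3.34 and Gpc4 from 4.16 to 4.35. With St3gal6 only Mcoln2, an endolysosomal channel, correlated above 0.95 (r = 0.951), followed by Ccl24 (r = 0.911) and the lysosomal enzyme Gusb (r = 0.868). Mcoln2 ran from 4.82 to 5.02, Ccl24 from 4.20 to 4.45 and Gusb from 9.23 to 9.51. Among the members themselves r was 0.983 between St3gal1 and St3gal3, 0.908 between St3gal1 and St3gal2 and 8.6e-05 between St3gal3 and St3gal6, over the same 6 arrays.

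Of 15 other listed sialyltransferases 14 were measured. With PMA 0 passed by limma, with 10 higher and 4 lower in mean and a median difference of 0.055 log2 units. St8sia6 and St8sia2, which make α2,8 linkages, differed most, at 0.28 (SE 0.12) and 0.18 (SE 0.75). With the replicate number as a block their SEs were 0.091 and 0.069 and their unadjusted limma p 0.0139 and 0.0260. They were the 2 of the 14 under 0.05, against 3.37% of all probe sets, and 0 passed after adjustment. In number 1, 6 of the 14 were called higher and 0 lower, against 3 of 5 members and 27.5% of all probe sets. St6galnac2 and St6gal1, of the α2,6 linkage, led with 2.82 (SE 0.078) and 2.22 (SE 0.11), larger than the 1.17 of St3gal1. The median number 1 difference was 0.15 in these 14, 0.27 in the 5 members and 0.079 over all probe sets.

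**Figure D5:**
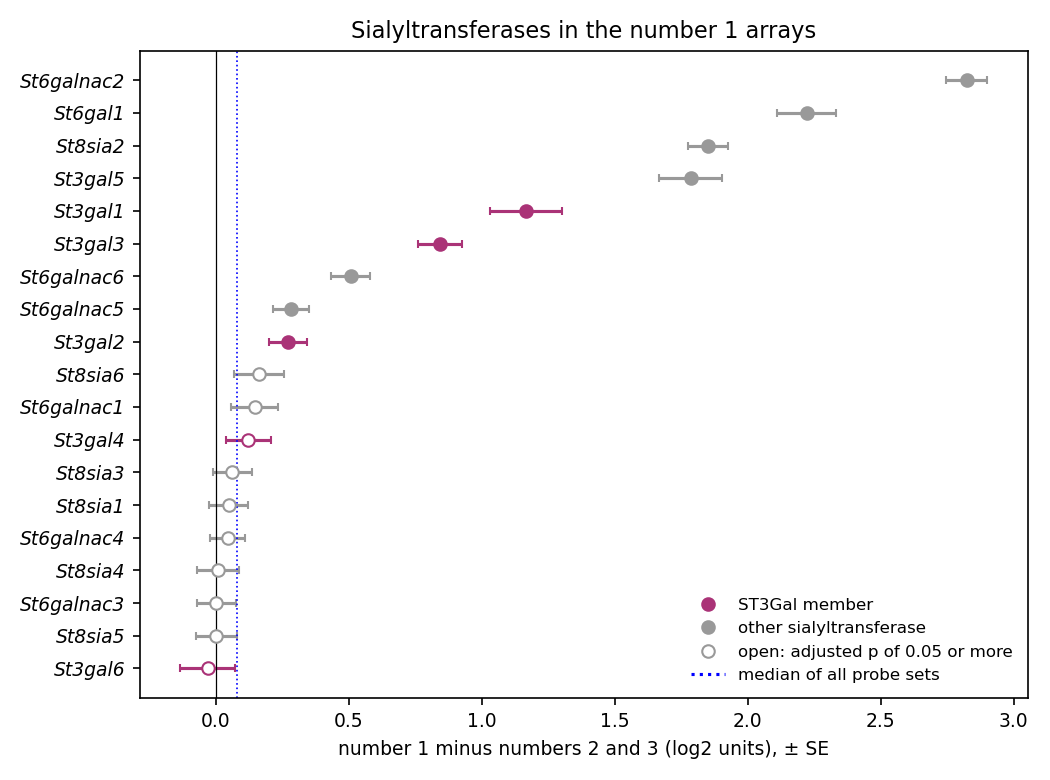
Number 1 minus numbers 2 and 3 (log2 units, x axis) with limma's SE for the 19 measured sialyltransferases, the members in purple and the others in grey. Filled points had an adjusted p under 0.05, and the dotted line is the median of all probe sets (0.079). St3gal1 and St3gal3 lie below the 4 genes of largest difference, and St3gal6 is the lowest of the 19.

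Of 11 listed genes of sialic acid and CMP-sialic acid synthesis, transport and breakdown and sialidases, which remove sialic acid, 9 were measured and 0 passed for PMA by limma, with 5 higher, 4 lower and a median of 0.0065 log2 units. Nans, the sialic acid synthase, differed by -0.11 and Cmas, which activates sialic acid to CMP-sialic acid, by -0.098. In number 1, 5 were called higher and 2 lower, against 27.5% and 14.1% of all probe sets. The 2 lower were Cmas, by -1.06 (SE 0.077), and the sialidase Neu1, by -0.24 (SE 0.073), which is named after its value was seen. Of the 5 higher, Nans was higher by 0.36 (SE 0.075) and Cmah, which hydroxylates CMP-sialic acid, was higher by 2.03 (SE 0.086).

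Of 7 listed genes for building or extending mucin-type O-glycans, 6 were measured. St3gal1 and St3gal2 act on the core 1 structure of such glycans, which not all of the 6 serve to make. In number 1, 4 were called lower and 0 higher, against 14.1% and 27.5% of all probe sets, with a median of -0.61 log2 units. The core 1 synthase C1galt1, named after its value was seen, did not pass (-0.29, adjusted p = 0.0509), nor did B3gnt6 (0.082). B3gnt3 and Gcnt3, which extend and branch O-glycans, differed by -1.40 (SE 0.11) and -1.33 (SE 0.074). For PMA 0 of the 6 passed by limma (5 higher, 1 lower, median 0.047), with B3gnt3 at -0.17 and B3gnt6, the core 3 synthase, at 0.068.

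Of 15 listed galactosyl- and N-acetylglucosaminyltransferases from families that build the chains used by St3gal3, St3gal4 and St3gal6, 14 were measured. Not all of these build such chains, since B3galt4, for 1, acts on glycolipids. In number 1, 5 of the 14 were called higher and 3 lower, against 27.5% and 14.1% of all probe sets. The largest differences were in B3galt5 at -2.17 (SE 0.077) and B3gnt7 at 1.99 (SE 0.073). With PMA 0 of them passed by limma (5 higher, 9 lower, median -0.017), with B3galt4 at -0.15 and B3galt1 at 0.14. All 10 listed enzymes from the fucosyl- and sulfotransferase families that complete sialyl Lewis x and its sulfated forms were measured. Not all 10, Fut11 and Chst7 among them, are established as doing so. In number 1, 5 of the 10 were called higher and 1 lower, against the same 27.5% and 14.1% of all probe sets. The N-acetylglucosamine 6-O-sulfotransferases Chst2 and Chst4 differed by 1.47 (SE 0.072) and -0.59, and the fucosyltransferase Fut11 by 0.96 (SE 0.098). With PMA 0 passed by limma (5 higher, 5 lower, median 0.0059), led by Chst7 at -0.18 and Chst4 at 0.14.

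Of 16 listed carriers of the sialylated chains 13 were measured. In number 1 the mucins Muc5ac (-2.59) and Muc5b (-1.13) and the sialomucin Cd164 (-0.85) were called lower and 1 gene higher. Of 13 listed selectins and Siglecs, from families that read sialylated glycans, 12 were measured. Not all 12 are established as reading the α2,3 linkage. In number 1, 1 was called higher and 2 lower, Sele (-1.13) and Siglec15 (-0.45). Over all probe sets 27.5% were called higher in number 1 and 14.1% lower. For PMA 0 passed in either list by limma, with 10 higher and 3 lower among carriers (median 0.034) and 6 and 6 among selectins and Siglecs (median -6.6e-05). The largest PMA differences were in Muc5ac (0.18), Cd164 (0.14), Siglech (-0.15) and Mag (0.088).

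Some markers of other cells moved with number 1 as well. Of 13 listed leukocyte markers 5 were measured, and their mean level was 4.54 to 4.73 in the number 1 arrays and 5.76 to 5.81 in the others. Of these 5, Ccr7 (-3.22) and Mrc1 (-2.74) were called lower, and the other 3, among them Csf1r at 0.10 and Adgre1 at 0.16, did not pass. Of 14 endothelial and fibroblast markers 7 were measured, at 5.56 to 5.72 and 6.27 to 6.49. Of these 7, 4 were called lower, led by Dcn (-2.31) and Pecam1 (-1.37), 1 higher, Pdgfrb (0.78), and 2 did not pass. Over all probe sets 14.1% were called lower in number 1 and 27.5% higher. The 2 lung epithelial markers averaged 4.65 to 4.70 and 4.29 to 4.44, with Sftpa1 at 0.52. Other defining markers, such as Ptprc, were not among the named genes, and no marker is at 0 on the RMA scale. Their part in the number 1 difference of St3gal1, St3gal2 and St3gal3 was not tested. Between the groups the same mean levels ran from 4.54 to 5.81 in control and 4.73 to 5.81 in PMA arrays for leukocytes and from 5.72 to 6.39 and 5.56 to 6.49 for endothelium and fibroblasts. No marker passed for PMA by limma. Mrc1 differed by 0.38 (SE 1.11) and was higher in all 3 numbers (unadjusted p = 0.0114 with the block), Pdgfrb by -0.22 (unadjusted p = 0.0298 with the block), Vcam1 by 0.13, Sftpd by -0.042 and Ccr7 by -0.039.

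Whether PMA acted on these cells could be read from few genes. Of 23 listed genes that phorbol esters are known to induce, 7 had a probe set and 0 passed by limma, with 3 higher and 4 lower in mean and a median difference of -0.013 log2 units. The chemokine Cxcl1 differed by 0.21 (SE 0.48) and Junb, an AP-1 subunit, by -0.16 (SE 0.37). With the replicate number as a block their SEs were 0.12 and 0.066 and their unadjusted limma p 0.124 and 0.0399. Junb, lower with PMA in all 3 numbers, was the 1 of the 7 under 0.05, against 3.37% of all probe sets. After adjustment 0 of the 7 passed with the block. Of the 7, 1 was called higher and 4 lower in number 1, against 27.5% and 14.1% of all probe sets. Cxcl2 differed by -3.06 (SE 0.10) and the growth factor Areg by -1.31 (SE 0.091).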

How the data were processed

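RNA of 6 samples was hybridised as biotinylated cRNA from 0.5 µg of total RNA, per the labels' protocols. The deposited log2 values were made by the authors with RMA, per the submitters' processing notes. Neither its version nor the array's name was given in the sources used here, and no filter is named there. The number of arrays limits the precision.

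Probe sets were named by matching the RefSeq accession in their names, without version, to the RefSeq gene table of GRCm38.p6: 963 of 1246 matched. A gene with more than 1 probe set was represented by that of highest mean. The deposited values were fitted with limma 3.58.1 in R 4.3.3 (lmFit, eBayes), with Benjamini-Hochberg adjustment over all 1246 probe sets. SE is limma's moderated error. The procedure was tested on simulated data. Members, lists, tests and the rule for naming genes were chosen with earlier results of these data known. That rule took all members, in each list the 2 genes of largest absolute difference in each comparison, and for each member the 3 genes of highest correlation. Same-numbered arrays correlated at 0.956, 0.815 and 0.912 in their deviations from the group means, all over 0.1, so the numbers were also fitted as blocks. Control 2 with PMA 3 (0.886) and control 3 with PMA 2 (0.838) correlated about as highly. These values therefore do not show a pairing within numbers 2 and 3. With number 1 set aside, control 2 minus control 3 correlated at 0.041 with PMA 2 minus PMA 3. The pairing comes from the numbers in the sample titles. Alternatives were the block, left-out arrays and numbers, scaling, a filter on low probe sets, averaged probe sets and another variance prior. Leaving out number 2 or 3 from both groups was added after seeing the data, as were the left-out arrays and the centring for the dependence on number and for number 2 against 3.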

Additional observations from a re-analysis of the deposited data

How the results depend on the processing

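PMA calls of members stayed at 0 under every alternative run, and number 1 calls at 3, except 2 in the PMA arrays alone and without control 1, where St3gal2 was lost. With the replicate number as a block the count for PMA was 0 and the St3gal1 difference 0.21 (SE 0.11); the block changed no call. Signs were less stable than calls, since no PMA difference passed. Leaving out 1 array at a time unbalances the numbers and gave PMA differences of -0.13 to 0.65 for St3gal1, -0.040 to 0.16 for St3gal2, -0.21 to 0.35 for St3gal3, 0.069 to 0.21 for St3gal4 and -0.018 to 0.13 for St3gal6. With number 2 left out of both groups St3gal6 was -0.095, and with number 3 left out St3gal2 was -0.019. The number 1 differences ran over the same omissions from 1.03 to 1.31 (St3gal1), 0.18 to 0.36 (St3gal2), 0.79 to 0.90 (St3gal3), 0.080 to 0.18 (St3gal4) and -0.13 to 0.064 (St3gal6), and St3gal6 was 0.064 in the control arrays alone. The alternatives for the next 2 results were added after seeing the data, apart from the variance prior. Dependence of the PMA difference on number ran from -0.55 to 0.025 (St3gal1), -0.10 to 0.15 (St3gal3) and -0.028 to 0.20 (St3gal4), and was -0.022 for St3gal3 with arrays centred on their medians. Number 2 minus number 3 ran from -0.067 to 0.098 (St3gal2), -0.19 to 0.14 (St3gal4) and -0.24 to 0.26 (St3gal6), and with centred arrays was -0.0057 for St3gal2 and -0.016 for St3gal6. The causes were not tested. Centring and a second quantile normalization shifted the median number 1 difference of all probe sets by -0.039 and -0.066. With the second normalization the number 1 difference was 1.00 for St3gal1, 0.24 for St3gal2, 0.73 for St3gal3, 0.032 for St3gal4 and -0.18 for St3gal6, and with centring 0.083 for St3gal4 and -0.070 for St3gal6. Signal over background is unknown, so a change of a dim transcript may be understated.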
